A study of Mus musculus with 6 samples.

Results

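The genes described are 38 genes that drive or mark the cell cycle and mitosis, chosen by name from the cyclins, their kinases, the replication and licensing factors and the mitotic machinery, out of 21366 genes with a named probe on the arrays. All 38 had a probe. They were measured in melanocyte stem cells, the reserve of pigment cells in the hair follicle, sorted from the skin of male mice as cells with green fluorescence and low side scatter. There were 3 K14-SCF Tg and 3 WT samples, each hybridised to its own array. K14-SCF Tg mice express stem cell factor, which activates the KIT receptor of pigment cells, from the keratin 14 promoter of basal keratinocytes, so the transgene acts on the sorted cells from outside. The age of the mice, the driver of the green fluorescence and whether animals were pooled are not given in the sources used here, and the labels do not tie the numbered replicates to different animals. The p-values therefore cover the spread among these 6 samples alone, and that spread may be technical.

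Cells enter the cycle when D-type cyclins with CDK4 or CDK6, and then cyclin E with CDK2, release E2F factors from the retinoblastoma proteins. E2F factors switch on the genes of origin licensing and DNA synthesis. The genes of mitosis, governed by the DREAM and FOXM1 complexes, are low in resting cells. Melanocyte stem cells are known to rest for most of the hair cycle and to divide when a new hair starts to grow.

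A level is the processed signal divided by the 75th percentile of its array, on the log2 scale, so that 0 marks that percentile, and each gene is read from its brightest probe. Brightness also depends on the probe's own sequence, so levels of different genes were not ranked. The series holds no dividing reference cells, and a level was therefore read only against the array's background and its 75th percentile. The share of the 55681 probes well above background was 83.9% to 87.1% on the Tg arrays and 78.4% to 85.9% on the WT arrays, with 0 saturated spots. All 12 pigment lineage markers, among them Kit, Tyr, Dct, Pmel, Mlana, Mitf and Sox10, were well above background on all 6 arrays. The slide of WT replicate 1 held no other array, and on the second slide replicate 3 of both genotypes shared row 2.

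Transcripts of most of these genes were detected in both genotypes. Of the 38 genes, 33 (86.8%) were well above background on all 6 arrays, where 75.5% of all genes were. Top2a was above background on 5 arrays. Cdk6, Ccne2, Bub1 and Aurkb were above background on 0 arrays (10.5% of the 38, against 6.92% of all genes). Of the 20 G1 and S phase genes, 10 lay above the 75th percentile on all 6 arrays. Of the 18 mitotic genes 1 did (Cdc20), where 23.6% of all genes did. Conversely, 14 of the 18 mitotic genes and 6 of the 20 G1 and S phase genes lay below it on every array, where 60.3% of all genes did. These counts describe probes of differing sequence and were not tested. Among other cell cycle genes, the replication origin and fork had 6 of 38 above that percentile on all 6 arrays. Mitosis and cytokinesis had 7 of 44, so these wider lists did not show such a gap by that count. Below it on every array lay 19 of 38 (50%) and 33 of 44 (75%), a gap in the same direction. Detection also depends on the probe: read from the dimmest probe of each gene, 28 of the 38 genes were well above background on all 6 arrays.

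**Figure D1:**
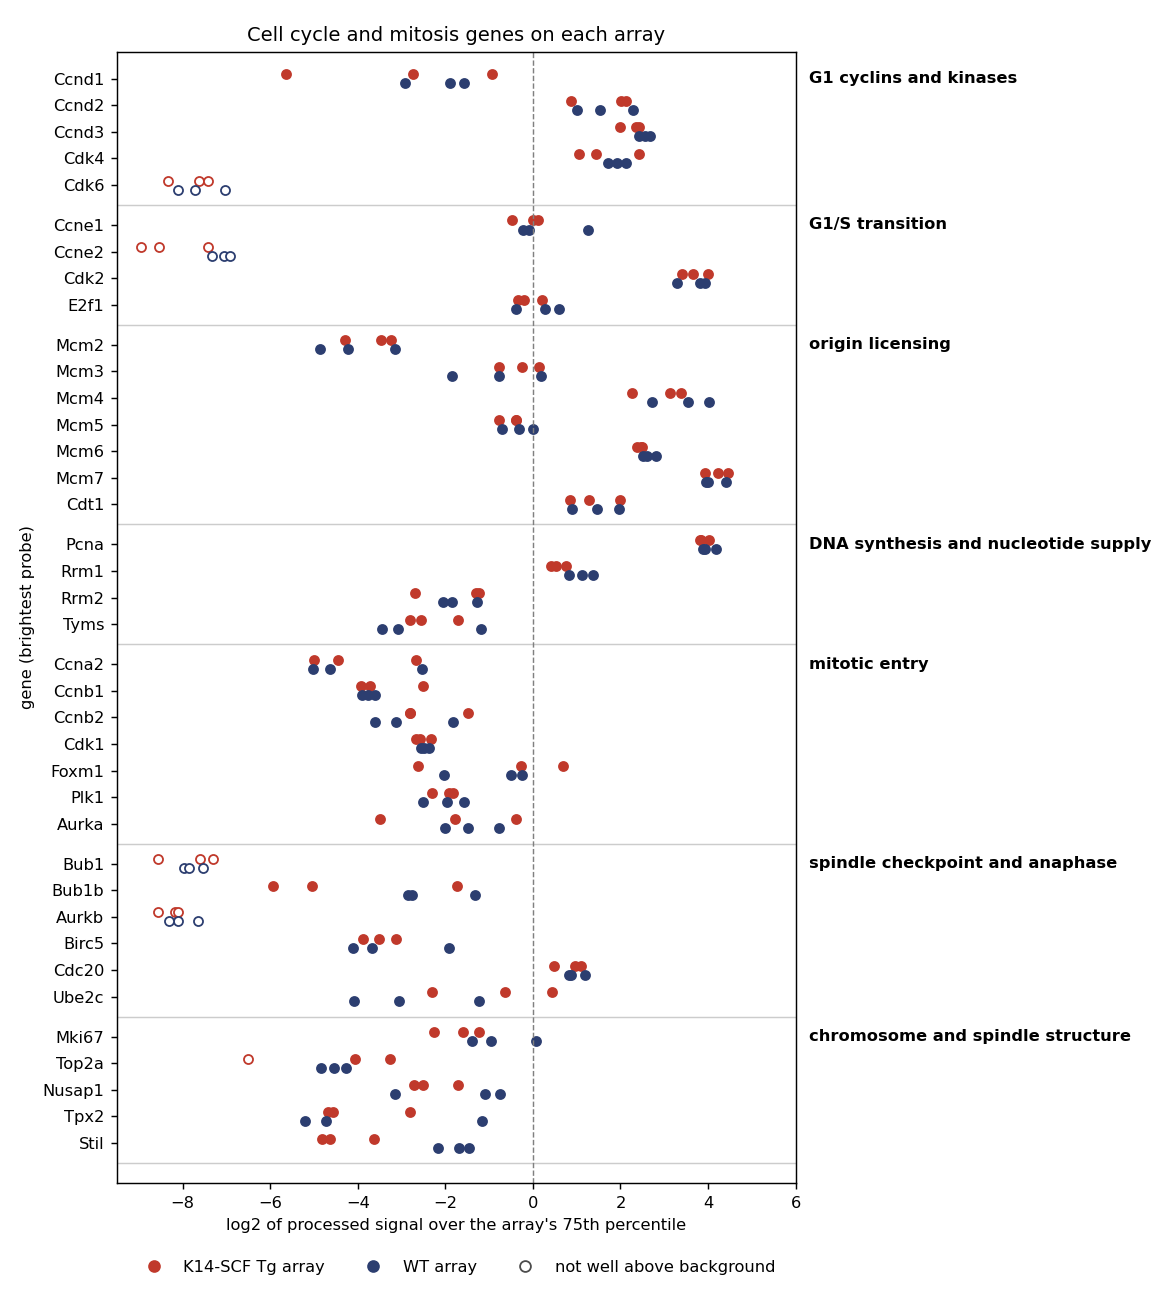
Level of each of the 38 genes on each array, log2 relative to the 75th percentile of that array (line at 0), grouped by role. Red points are the 3 K14-SCF Tg arrays and blue points the 3 WT arrays, and open points were not well above background. Cdk6, Ccne2, Bub1 and Aurkb are open on all 6 arrays, and the mitotic genes other than Cdc20 lie mostly left of the line.

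Promoter sequence was not used to choose the genes. RefSeq promoters (assembly GRCm38.p6) of 30 of the 38 genes were at hand, 32 start sites in all, and were read from 250 bases before to 30 bases after the start. A CCAAT box, the element of the factor NF-Y (CCAAT on either strand), was present in 23 of 32 (71.9%), against 36.1% of all 32851 promoters. An E2F site (TTTCCCGC, TTTGGCGC or TTTCGCGC on either strand) was present in 6 of 32 (18.8%), against 1.73% of all promoters, namely in promoters of Mcm3, Mcm5, Mcm6, Mcm7, Cdk1 and Cdk2. A CHR, the element bound by DREAM (TTTGAA on either strand), was present in 7 of 32 (21.9%), against 17.2% of all promoters: those of Mcm2, Ccnb2, Cdk1, Cdc20, Ube2c, Mki67 and Top2a. E2F sites on opposite strands can overlap each other and were counted singly, and a match is only a run of letters. The CCAAT box was the 1 element of the 3 found in most of these promoters. Taken over all roles, the CHR was near its share of all promoters. By role, it was in 2 of 5 genes of mitotic entry and 2 of 5 of the spindle checkpoint and anaphase. It was also in 2 of 4 genes of chromosome and spindle structure, in 1 of 6 of origin licensing and in 0 genes of the other lists. Variants of these runs were not searched, and no difference in share was tested. Capitals mark the matches in 5 promoters, chosen as a licensing gene with E2F sites (Mcm6), a gene with all 3 elements (Cdk1), a mitotic gene above the 75th percentile (Cdc20), one at background (Bub1) and the gene with the smallest p (Stil).
Mcm6 (chr1:128359676-128359955, minus strand): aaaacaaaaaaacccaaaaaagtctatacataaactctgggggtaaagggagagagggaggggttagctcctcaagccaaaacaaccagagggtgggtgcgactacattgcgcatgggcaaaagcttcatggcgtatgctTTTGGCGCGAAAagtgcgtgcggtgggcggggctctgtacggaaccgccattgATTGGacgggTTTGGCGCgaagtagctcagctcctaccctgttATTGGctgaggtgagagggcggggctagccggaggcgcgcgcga
Cdk1 (chr10:69352883-69353162, minus strand): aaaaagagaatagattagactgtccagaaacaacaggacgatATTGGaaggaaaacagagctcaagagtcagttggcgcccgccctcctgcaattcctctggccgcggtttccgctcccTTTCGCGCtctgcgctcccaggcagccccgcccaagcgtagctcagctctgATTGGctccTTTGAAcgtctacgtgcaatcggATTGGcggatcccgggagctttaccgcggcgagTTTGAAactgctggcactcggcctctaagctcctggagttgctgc
Cdc20 (chr4:118437314-118437593, minus strand): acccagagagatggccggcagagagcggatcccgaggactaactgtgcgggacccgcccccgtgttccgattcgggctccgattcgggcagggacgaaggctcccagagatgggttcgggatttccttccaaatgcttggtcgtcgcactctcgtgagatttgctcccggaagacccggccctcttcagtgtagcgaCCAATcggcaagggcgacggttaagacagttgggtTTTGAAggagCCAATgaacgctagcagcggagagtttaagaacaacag
Bub1 (chr2:127831830-127832109, minus strand): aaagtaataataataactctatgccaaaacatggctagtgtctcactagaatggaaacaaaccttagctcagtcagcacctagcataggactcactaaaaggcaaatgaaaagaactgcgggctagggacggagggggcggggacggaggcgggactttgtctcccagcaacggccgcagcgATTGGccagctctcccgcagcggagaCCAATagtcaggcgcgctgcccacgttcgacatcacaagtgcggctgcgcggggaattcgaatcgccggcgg
Stil (chr4:114999868-115000147, plus strand): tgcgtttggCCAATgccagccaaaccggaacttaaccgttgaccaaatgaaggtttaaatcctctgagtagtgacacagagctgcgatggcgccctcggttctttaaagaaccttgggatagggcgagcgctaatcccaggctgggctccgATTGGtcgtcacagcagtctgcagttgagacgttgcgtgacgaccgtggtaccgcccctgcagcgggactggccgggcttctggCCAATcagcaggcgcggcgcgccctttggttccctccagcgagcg
Mcm6 holds E2F sites on both strands and CCAAT boxes, Cdk1 holds all 3 elements, and Bub1, whose probe was at background on every array, holds CCAAT boxes as does Stil.

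None of the 38 genes was called different between K14-SCF Tg and WT. Of the 34 genes tested (well above background on at least 3 arrays), 0 were higher and 0 lower in K14-SCF Tg (limma, adjusted p between 0.416 and 1.00), where 0.00545% of all 18364 genes tested were called higher and 0% lower. At an unadjusted p under 0.05, limma counted 0 higher and 1 lower (Stil, 2.94%), against 2.85% higher and 2.56% lower among all genes. The genotypes did not overlap in 3 genes, all lower in K14-SCF Tg (8.82%, against 5.41% of all genes), and in 0 genes that were higher (against 5.13%). Log2 fold changes (Tg minus WT) were positive in 11 and negative in 23 of the 34, with a median of -0.10, where the median over all genes was -0.01. The positive share was 32.4%, against 48.6% of all genes, and the negative share 67.6%, against 51.4%. Leaving out 1 array gave 3 to 8 separated genes that were lower (8 without WT replicate 3, 5 without any 1 Tg array) and 0 to 4 that were higher (4 without WT replicate 3, 2 without Tg replicate 1 and 1 without WT replicate 1). The 95% interval of the difference included 0 in 33 of the 34 genes. In 9 genes it lay wholly within a 2-fold change either way, namely in Ccnd3, Cdk2, Mcm5, Mcm6, Mcm7, Pcna, Cdk1, Plk1 and Cdc20. For the other 25 genes these arrays do not bound the difference so closely.

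**Figure D2:**
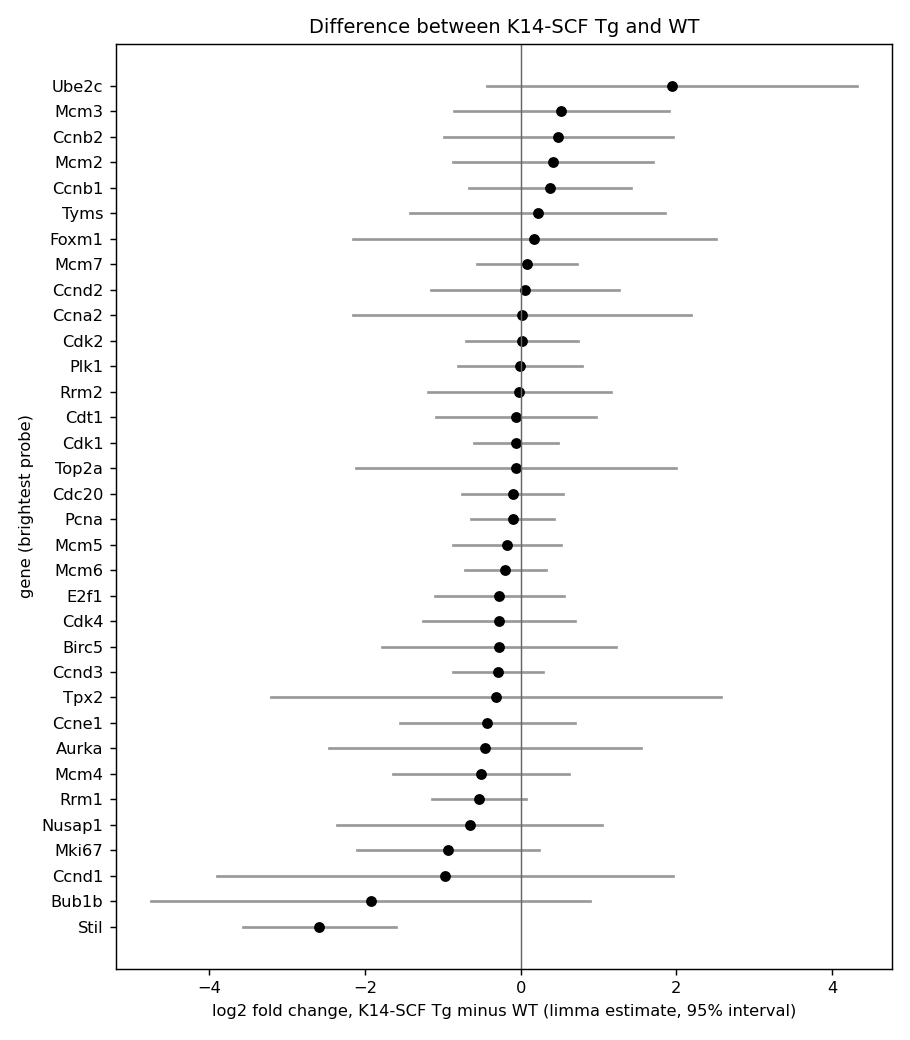
Log2 fold change (K14-SCF Tg minus WT) of the 34 genes tested, with the limma 95% interval as a bar. Stil (-2.59) is the gene whose interval does not reach 0, and intervals are shortest for Mcm6, Pcna and Cdk1 and longest for Ccnd1, Tpx2 and Bub1b.

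The G1 cyclins and kinases, which carry the signal of growth factors to the cycle, were read first. Ccnd2, cyclin D2, stood above the 75th percentile throughout, at 2.14, 2.00 and 0.86 in K14-SCF Tg and at 1.54, 2.29 and 1.00 in WT. Ccnd3, cyclin D3, stood at 2.43, 1.98 and 2.36 in K14-SCF Tg and at 2.55, 2.68 and 2.42 in WT, a log2 fold change of -0.29 (SE 0.24, 95% interval -0.87 to 0.29, limma adjusted p = 0.979). The values overlapped narrowly, in that the highest Tg value (Tg replicate 1) just exceeded the lowest WT value, and its other probe gave -0.12. Cdk4, the kinase partner of the D-type cyclins, stood at 1.45, 2.43 and 1.06 in K14-SCF Tg and at 2.12, 1.72 and 1.91 in WT, a difference of -0.28 (SE 0.40, 95% interval -1.26 to 0.70, limma adjusted p = 0.990). The Tg arrays enclosed all WT values, and the other 2 Cdk4 probes gave -0.39 and 0.09.

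Ccnd1, cyclin D1, was the most scattered of the 34 genes. Its level was -0.93, -2.73 and -5.64 in K14-SCF Tg and -1.57, -2.92 and -1.90 in WT, a log2 fold change of -0.97 (SE 1.19, 95% interval -3.90 to 1.96, limma adjusted p = 0.988). Tg replicate 3 lay far below the other Tg arrays, and without it the difference was 0.30. Cdk6, the other partner of the D-type cyclins, was at background on every array (-7.62, -8.34 and -7.42 in K14-SCF Tg, -7.04, -8.10 and -7.72 in WT), read from a single probe. A probe at background does not show that the transcript is absent.

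The 3 tested genes of the G1/S transition each had a 95% interval that included 0, and only that of Cdk2 lay within a 2-fold change. Cdk2, the kinase that starts DNA replication, stood at 3.65, 3.41 and 4.01 in K14-SCF Tg and at 3.81, 3.29 and 3.93 in WT, and its difference was bounded between -0.70 and 0.73 (95% interval). Of the cyclins E that activate CDK2, Ccne1 stood at 0.01, 0.12 and -0.47 in K14-SCF Tg and at -0.22, 1.25 and -0.09 in WT. WT replicate 2 was the highest, the difference was -0.43 (SE 0.46), and the other Ccne1 probe gave 0.31. Ccne2, the second cyclin E gene, was at background on all arrays and so was not tested. E2f1, the activator of replication genes, stood at -0.33, -0.21 and 0.22 in K14-SCF Tg and at -0.39, 0.27 and 0.61 in WT (-0.27, SE 0.34), with overlapping genotypes.

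The origin licensing genes encode the MCM helicase, which is loaded on DNA in G1, and its loader CDT1. All 7 were above background on all 6 arrays, and Mcm4, Mcm6, Mcm7 and Cdt1 lay above the 75th percentile on each. Mcm6, whose promoter with E2F sites is shown above, stood at 2.50, 2.47 and 2.38 in K14-SCF Tg and at 2.61, 2.80 and 2.51 in WT. Its genotypes did not overlap, with all Tg values the lower, but by only -0.19 (SE 0.21, 95% interval -0.71 to 0.32, limma adjusted p = 0.988). Mcm7 was at 3.93, 4.24 and 4.46 in K14-SCF Tg and at 3.99, 3.96 and 4.42 in WT (0.08, SE 0.26). Mcm4 was at 3.13, 3.37 and 2.27 in K14-SCF Tg and at 4.02, 3.55 and 2.72 in WT (-0.51, SE 0.46). In both genes the genotypes overlapped. Cdt1 gave -0.06 (SE 0.42), Mcm5 -0.18 (SE 0.28), Mcm3 0.52 (SE 0.56) and Mcm2 0.41 (SE 0.52). The helicase subunits thus had differences of both signs, 3 positive and 3 negative, and each 95% interval included 0.

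Of the genes of DNA synthesis, Pcna, the sliding clamp of DNA polymerase, was among the most even. It stood at 3.84, 3.83 and 4.02 in K14-SCF Tg and at 3.93, 3.87 and 4.19 in WT, a log2 fold change of -0.10 (SE 0.22, 95% interval -0.64 to 0.43, limma adjusted p = 0.999). Rrm1, the large subunit of ribonucleotide reductase, which makes deoxynucleotides and is present throughout the cycle, was lower on every Tg array than on any WT array. Its level was 0.52, 0.76 and 0.42 in K14-SCF Tg and 0.83, 1.11 and 1.36 in WT, a log2 fold change of -0.54 (SE 0.25, 95% interval -1.14 to 0.07, limma unadjusted p = 0.0740 and adjusted p = 0.930), which did not pass. Rrm2, the small subunit, made mainly in S phase, stood at -1.29, -2.70 and -1.23 in K14-SCF Tg and at -2.05, -1.84 and -1.28 in WT (-0.02, SE 0.48). Tyms, the thymidylate synthase, gave 0.22 (SE 0.67) with WT replicate 1 at -1.19 and the other WT arrays at -3.45 and -3.09. The genotypes were apart for Rrm1 and overlapped for Rrm2 and Tyms, and whether the subunits differ in response was not tested.

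The genes of mitotic entry were all above background on all 6 arrays, 6 of the 7 lay below the 75th percentile on each, and none differed beyond its spread. Cdk1, the kinase that starts mitosis, was the steadiest of them, at -2.68, -2.33 and -2.58 in K14-SCF Tg and at -2.49, -2.37 and -2.55 in WT. The log2 fold change was -0.06 (SE 0.22, 95% interval -0.60 to 0.47, limma adjusted p = 1.00). This reading came from the brightest of 3 Cdk1 probes. The others were above background on 4 arrays (-5.12, -7.00 and -4.72 in K14-SCF Tg, -6.34, -4.97 and -5.29 in WT) and on 2 arrays, so the narrow spread holds for the brightest probe.

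Ccnb1, cyclin B1, the main partner of CDK1, stood at -2.50, -3.93 and -3.72 in K14-SCF Tg and at -3.92, -3.77 and -3.61 in WT. The difference of 0.38 (SE 0.42, 95% interval -0.66 to 1.41, limma adjusted p = 0.988) changed to -0.06 without Tg replicate 1. Its 2 other probes gave 0.88 and -0.88. Ccnb2, cyclin B2, was at -2.82, -2.80 and -1.49 in K14-SCF Tg and at -3.13, -3.60 and -1.83 in WT (0.49, SE 0.60), and in both genotypes replicate 3 was the highest. Ccna2, cyclin A2 of S phase and G2, was high on Tg replicate 1 (-2.67) and on WT replicate 2 (-2.52) and between -5.03 and -4.45 on the other 4 arrays.

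Plk1, the polo-like kinase of spindle assembly, stood at -2.31, -1.83 and -1.91 in K14-SCF Tg and at -1.96, -2.50 and -1.56 in WT (-0.01, SE 0.32). Foxm1, the transcription factor of mitotic genes, was at -2.63, -0.28 and 0.68 in K14-SCF Tg and at -0.24, -0.50 and -2.03 in WT, a spread of over 3 log2 units within K14-SCF Tg. Aurka, the aurora kinase of centrosomes, was at -0.39, -3.48 and -1.78 in K14-SCF Tg and at -0.78, -2.01 and -1.48 in WT (-0.46, SE 0.81). The arrays with the highest and the lowest Aurka were both K14-SCF Tg.

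The spindle checkpoint and anaphase genes held both extremes of detection. Cdc20, the activator of the anaphase-promoting complex, lay above the 75th percentile on all arrays, at 1.10, 0.97 and 0.49 in K14-SCF Tg and at 1.18, 0.87 and 0.82 in WT (-0.10, SE 0.27). Bub1, a checkpoint kinase, was at background throughout, at -7.61, -8.56 and -7.31 in K14-SCF Tg and at -7.53, -7.97 and -7.87 in WT. Aurkb, the aurora kinase of the chromosomal passenger complex, was likewise at background, while Birc5, which encodes survivin of the same complex, was detected on all 6 arrays (-3.52, -3.89 and -3.12 in K14-SCF Tg, -4.10, -3.67 and -1.91 in WT). Each of Bub1 and Aurkb was read from a single probe.

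Ube2c, the ubiquitin-conjugating enzyme that works with the anaphase-promoting complex, had the largest positive difference of the 34 genes. It stood at -2.30, -0.65 and 0.43 in K14-SCF Tg and at -4.08, -3.05 and -1.23 in WT, a log2 fold change of 1.95 (SE 0.97, 95% interval -0.43 to 4.32, limma unadjusted p = 0.0914 and adjusted p = 0.933). The genotypes overlapped, because WT replicate 3 lay above Tg replicate 1. The second Ube2c probe stood at -1.66, -0.78 and -2.96 in K14-SCF Tg and at -3.62, -3.09 and -3.53 in WT. There every Tg array lay above every WT array, with a difference of 1.61 (SE 0.57), and this probe did not pass either (limma adjusted p = 0.871). Replicate 3 was the highest of its genotype at the first probe, and with the slide row as a covariate, which sets replicate 3 of both genotypes apart, the difference of 1.95 had an unadjusted p = 0.0192 and an adjusted p = 0.677 (limma). Within the slide of 5 arrays, without WT replicate 1, it was 1.30 (limma adjusted p = 0.974).

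Bub1b, which encodes the checkpoint protein BUBR1, had a log2 fold change of -1.93 (SE 1.15, 95% interval -4.75 to 0.89, limma adjusted p = 0.950). Its level was -1.73, -5.05 and -5.94 in K14-SCF Tg and -2.86, -1.32 and -2.76 in WT. Tg replicates 2 and 3 lay below all WT arrays and Tg replicate 1 lay among them, and without Tg replicate 1 the difference was -3.18 (limma adjusted p = 0.701).

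Among the genes of chromosome and spindle structure, all 5 had a negative log2 fold change at their brightest probe, where 51.4% of all genes did. Of these 1, Stil, stood out. Stil, which encodes a protein needed to build new centrioles, was lower on each Tg array than on any WT array. Its level was -3.63, -4.81 and -4.64 in K14-SCF Tg and -2.17, -1.47 and -1.70 in WT, and it was well above background on all 6 arrays. The means were -4.36 ± 0.64 in K14-SCF Tg and -1.78 ± 0.36 in WT (SD, n = 3 each). The log2 fold change was -2.59 (SE 0.40, 95% interval -3.57 to -1.60), a ratio of 0.167 of Tg over WT, with an unadjusted p = 0.000684 and an adjusted p = 0.416 (limma), so it did not pass over all genes. Over the 17 other ways of processing the value lay between -2.95 and -1.99 and the adjusted p between 0.273 and 0.726. Within the slide of the other 5 arrays, and so also with a term for slide, it was -2.78 (limma adjusted p = 0.520). Stil was read from 1 probe. The linear sum of 13 fibroblast markers was also lower on every Tg array (11.3 to 23.4) than on any WT array (29.6 to 75.4). Collagen genes made up most of that sum. Rrm1 and Mcm6 stood beside the same lower sum, and the part of the sum in these differences was not tested. In sorted bulk cells, fewer cells with a transcript and less of it per cell cannot be told apart.

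Mki67, the gene of the proliferation marker Ki-67, stood at -1.60, -2.26 and -1.23 in K14-SCF Tg and at -0.97, 0.07 and -1.38 in WT. The log2 fold change was -0.94 (SE 0.48, 95% interval -2.11 to 0.23, limma unadjusted p = 0.0974 and adjusted p = 0.936), and the genotypes overlapped between Tg replicate 3 and WT replicate 3. The other Mki67 probe ranged from -6.09 to -0.04 over the 6 arrays and gave -0.01 (SE 1.91). Ki-67 transcript was thus detected in both genotypes and a difference was not detectable at this spread. Top2a, the topoisomerase that untangles chromosomes, stood at -6.51, -3.26 and -4.07 in K14-SCF Tg and at -4.83, -4.54 and -4.28 in WT (-0.06, SE 0.84, 95% interval -2.12 to 1.99, limma adjusted p = 1.00). Tg replicate 1 was its 1 array at background, and without it the difference was 0.88. Nusap1, a spindle protein, was at -1.71, -2.72 and -2.52 in K14-SCF Tg and at -1.09, -0.76 and -3.14 in WT (-0.65, SE 0.69). Tpx2, the spindle factor that activates aurora A, was high on WT replicate 3 (-1.16) and on Tg replicate 2 (-2.81) and between -5.21 and -4.56 elsewhere. Its difference was -0.32 (SE 1.18), and its other probe, above background on 4 arrays, gave 0.54 (SE 0.36).

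**Figure D3:**
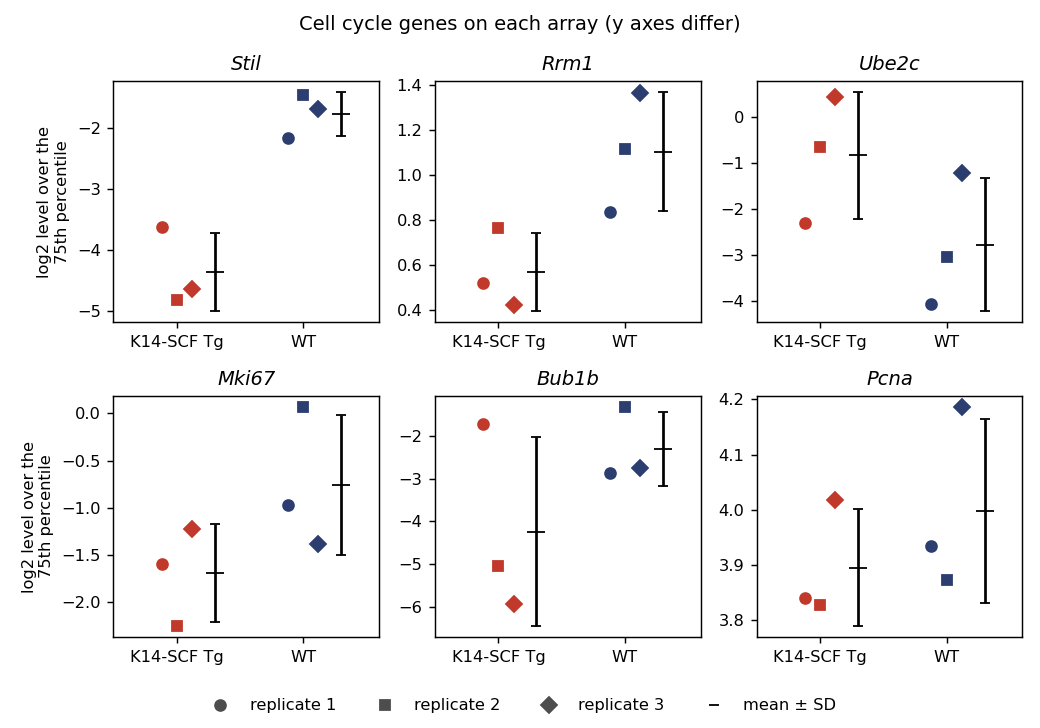
Level of Stil, Rrm1, Ube2c, Mki67, Bub1b and Pcna on each array (log2 over the array's 75th percentile), with K14-SCF Tg in red and WT in blue and symbols for the replicate number. Bars are mean ± SD (n = 3 per genotype), and the y axes differ. Stil and Rrm1 separate the genotypes, Ube2c, Mki67, Bub1b and Pcna do not.

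No array held the highest value of most of these genes. Of the 34 genes tested, the highest value lay on Tg replicates 1, 2 and 3 in 3, 3 and 7 genes and on WT replicates 1, 2 and 3 in 5, 9 and 7 genes. The median level of the 38 genes was between -2.30 (Tg replicate 2) and -1.36 (Tg replicate 3) in K14-SCF Tg and between -1.43 and -1.38 in WT. The spread between replicates was wider for the dimmer cell cycle genes. Its SD within a genotype exceeded 1 log2 unit in 8 genes, all but Ccnd1 acting in S phase, G2 or mitosis. When all tested genes were split by brightness into 4 classes of 4591, the median SD of the dimmest class was 1.21 for its 5 cell cycle genes and 0.65 for all its genes. That of the second dimmest class was 0.91 for its 12 cell cycle genes and 0.67 for all its genes. In the brightest class it was 0.29 for the 10 cell cycle genes and 0.31 for all genes. Where 2 or more probes of a gene were tested, their differences disagreed in sign in 5 of 10 genes (Cdk4, Ccne1, Ccnb1, Birc5 and Tpx2), against 45.3% of all such genes.

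**Figure D4:**
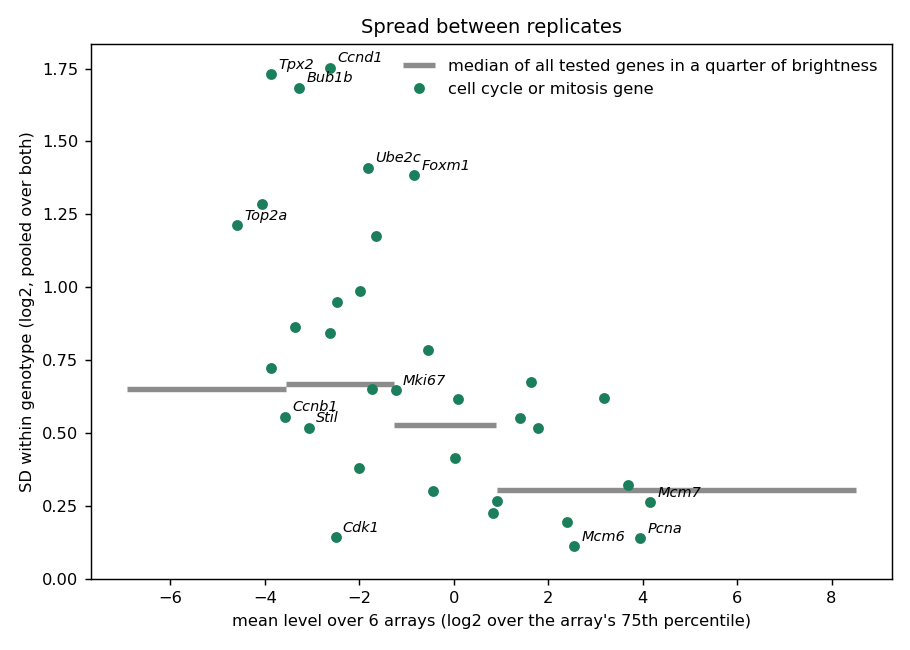
SD within genotype (log2, pooled over both genotypes, n = 3 each) against the mean level over 6 arrays for the 34 genes tested. Grey bars are the median SD of all tested genes in each of 4 brightness classes. Ccnd1, Tpx2 and Bub1b have the largest SD and Mcm6, Pcna and Cdk1 the smallest.

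Other genes of the cell cycle were counted from 4 lists, 124 genes in all. Over the 116 of them tested, limma called 0 in either direction. At an unadjusted p under 0.05 (limma) there were 4 higher (3.45%, against 2.85% of all genes) and 1 lower (0.862%, against 2.56%). Aspm, 1 of the 4, met the filter through its 3 Tg arrays alone, with 0 WT arrays above background. Its p-value and its place among the 4 are therefore no support for a difference. Genes of the replication origin and fork (38 tested) had 20 positive and 18 negative differences with a median of 0.05. Cdc7, the kinase that fires origins, was the 1 lower gene, at -2.96, -2.80 and -2.50 in K14-SCF Tg and at -0.62, -1.11 and -1.32 in WT (log2 fold change -1.74, SE 0.28, limma adjusted p = 0.433). Gmnn, the licensing inhibitor geminin, gave -1.26 (SE 0.59), and Orc1, the largest origin recognition subunit, 3.15 (SE 1.59) with 2 of 3 WT arrays above background.

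Genes of mitosis and cytokinesis (36 tested of 44) had 21 positive and 15 negative differences with a median of 0.09. Aspm, a spindle pole protein, was above background on 3 Tg arrays (-3.96, -4.32 and -2.41) and on 0 WT arrays (-7.01, -8.54 and -5.995). Its Tg level was at least 5.81-fold the lowest signal well above background on each WT array, or the probe's own signal if higher. Because Aspm met the filter through its Tg arrays alone, this ratio is a description and no support for a difference. The gene did not pass (limma adjusted p = 0.587). Plk4, the kinase that works with STIL in centriole duplication, stood at -3.37, -3.17 and -3.69 in K14-SCF Tg and at -4.57, -4.75 and -5.83 in WT. Its difference of 1.64 (SE 0.40, limma adjusted p = 0.645) rests on 2 of 3 WT arrays above background, WT replicate 3 being the exception, and it did not pass. Kif20a, a kinesin of the central spindle, gave 1.10 (SE 0.48). Melk and Pbk were above background on 0 arrays.

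The phase regulators (30 tested) had 9 positive and 21 negative differences with a median of -0.16. Skp2, which marks the inhibitor p27 for degradation, gave 1.14 (SE 0.41) with the genotypes apart, E2f8, a repressor of E2F targets, gave -2.53 (SE 1.11) with 1 of 3 Tg arrays above background, and Fzr1, an activator of the anaphase-promoting complex in G1, gave -1.21 (SE 0.55). The inhibitors and pocket proteins, which hold cells in G1, had 4 positive and 8 negative differences among 12, with a median of -0.20. Cdkn2b, the inhibitor p15, stood at -3.32, -3.30 and -2.25 in K14-SCF Tg and at -5.14, -6.53 and -5.52 in WT, with 1 of 3 WT arrays above background (2.77, SE 0.49, limma adjusted p = 0.487). Rbl2, the pocket protein p130 of resting cells, gave -0.73 (SE 0.40) and Rbl1, the pocket protein p107, 0.65 (SE 0.45). None of these passed.

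Markers of other skin cells that could bring dividing cells into the sort were summed on the linear scale, in multiples of the array's 75th percentile. The 13 fibroblast markers, led by Col1a2, had the sums given with Stil. Most of each sum came from Col1a2, Col1a1 and Col3a1, so it says less about the other markers. Of the 12 of them tested, 9 had negative and 3 had positive differences. The 3 were Pdgfra (1.26, SE 0.97), Mfap5 (1.01, SE 1.26) and Fbln1 (0.36, SE 0.56). Of these markers 11 were above background on all 6 arrays, and Thy1 had the smallest p (-1.69, SE 0.34, limma adjusted p = 0.563). The 9 measured hair matrix and shaft markers summed to between 0.967 and 1.16 in K14-SCF Tg and between 0.529 and 0.916 in WT, likewise without overlap, and 6 of them were above background on all 6 arrays. Lef1 had the smallest p of them (1.90, SE 1.26, limma adjusted p = 0.962) and was highest on Tg replicate 2 (-0.76), while Msx2, the brightest on average, gave -0.10 (SE 0.78), and neither separated the genotypes. The sums overlapped for the pigment lineage (269.6 to 323.6 in K14-SCF Tg, 279.8 to 369.7 in WT) and keratinocytes (134.4 to 145.4 in K14-SCF Tg, 116.2 to 147.6 in WT). Most of the keratinocyte sum came from Trp63 (log2 level 6.76 to 7.14 over the 6 arrays), so it says little about the other markers. Among those, Krt14 ranged from 0.51 to 3.28. The sums also overlapped for leukocytes (3.92 to 5.49 in K14-SCF Tg, 4.22 to 8.09 in WT) and Schwann cells (65.4 to 69.7 in K14-SCF Tg, 49.9 to 74.0 in WT). Endothelial markers (2.76 to 3.37 in K14-SCF Tg, 2.29 to 5.16 in WT) and mast cell markers (0.591 to 0.693 in K14-SCF Tg, 0.325 to 0.658 in WT) overlapped too, and the mast cell genes Fcer1a and Ms4a2 were above background on 0 arrays. Within lists whose sums overlapped, Ednrb, the endothelin receptor of pigment cells, was lower on every Tg array (-0.65, SE 0.21, limma adjusted p = 0.822) and Krt17, a keratin of hair follicles, higher (2.18, SE 0.72, limma adjusted p = 0.844, above background on 2 of 3 WT arrays), and neither passed. The part of these cells in the differences above was not tested.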

How the data were processed

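Melanocyte stem cells of 3 K14-SCF Tg and 3 WT samples were hybridised to 1-colour Agilent arrays. Per the file headers, the scanner software was Agilent Feature Extraction 10.7.1.1, run on a design that refers to build mm9. The deposited intensity values are processed signals, background-subtracted and detrended within an array by the authors' scanner software, with spot and background medians. The 0 or 1 flags for background, saturation and outliers were used as deposited. The authors' deposited value table is a linear ratio, the processed signal over 1 constant per array (1405 to 1678). Its scale and direction are therefore known, its values are not centred per gene, and its column medians were 0.184, 0.188 and 0.176 in Tg and 0.170, 0.177 and 0.169 in WT.

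Outlier spots were left out, spots of a probe averaged, and the mean signal divided by the array's 75th percentile (55681 non-control probes) and put on the log2 scale. RefSeq accessions matched 28331 of 29786 probes to a gene (GRCm38.p6 table, used for names and promoters). A gene was read from its brightest probe on average over the 6 arrays. A probe was tested if 3 or more of its 6 arrays were well above background (47704 probes). Outlier flags removed 3 more. The fit was limma 3.58.1 in R 4.3.3 with genotype as its sole term. P-values were 2-sided and adjusted by Benjamini-Hochberg across the tested probes, with a threshold of 0.05. There were 3 arrays per genotype, which limits the precision. Data were simulated from the mean and within-genotype SD of each probe, taken as true, with the changed probes drawn at random over all levels. Recovery at bright or dim probes alone was not simulated. On the simulated data, limma found 0% of 2-fold changes between K14-SCF Tg and WT among 47704 probes. It found 12.8% where the change was 4-fold, 36% at 8-fold and 53.6% at 16-fold, and it made a mean of 2.3 calls among the probes with no change.

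The genes and lists were chosen with earlier results of these data known. Full statistics were given for the 6 cell cycle genes with the smallest p and for Mki67, Top2a, Pcna, Ccnd1, Cdk4, Cdk1 and Ccnb1. Of each other cell cycle list the 3 genes with the smallest p were named, some with only a log2 fold change and SE, and of some marker lists the brightest gene or the one with the smallest p. Alternatives changed the normalization, filter, probe choice, covariates, variance model and arrays. Replicate numbers were not taken as pairs.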

Additional observations from a re-analysis of the deposited data

How the results depend on the processing

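Under 17 alternatives (11 of processing or model, 6 leaving out 1 array each), limma called 0 of the 38 genes in either direction. The median log2 fold change stayed negative, between -0.19 (median centring) and -0.06 (mean of a gene's probes). It moved by less than the spread of the array median levels (0.25), which is wider than the median itself and so a loose yardstick. Leaving out 1 array gave medians of -0.18 to -0.13. At an unadjusted p under 0.05, 2 genes were lower with median centring (Rrm1 beside Stil), which moved the median over all genes to -0.10, and 2 without a filter on dim probes (Ccne2 beside Stil). Higher was 1 gene, Ube2c, with the mean of a gene's probes, where 1 gene was also apart and higher, and with the slide row as a covariate. Leaving out 1 array gave 0 to 1 higher (1 without WT replicate 3 or without Tg replicate 1) and 1 to 2 lower (2 without either, with Nusap1 or Bub1b beside Stil), 0 to 4 apart and higher, and 3 to 8 apart and lower (both highest without WT replicate 3). Fewer arrays make separation easier. Top2a turned to 0.13 with normexp and quantile normalization. Leaving out 1 array gave -0.74 to 0.88 for Top2a, -0.16 to 0.0136 for Cdk1, -0.0634 to 0.65 for Ccnb1, -2.05 to 0.30 for Ccnd1 and -0.67 to 0.0144 for Cdk4. The cause was not tested. Of the 12 genes followed, the other 7 kept their sign in all 17. Between 33 and 34 genes were above background on all arrays kept when 1 was left out, 34 by the flag for a positive and significant signal, and 28 by the dimmest probe of each gene. With the replicate block, 1 gene was higher at an unadjusted p under 0.05 (Ube2c, limma adjusted p = 0.726) and 0 were called. The deviations of same-numbered arrays correlated at 0.02, 0.05 and 0.13 for replicates 1 to 3, so the numbers were not read as pairs.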
